A study of Mus musculus with 12 samples.

Results

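Nr4a1, Nr4a2, and Nr4a3 are the 3 orphan nuclear receptors of the NR4A family, also called Nur77, Nurr1, and Nor1. They were found by gene symbol in the platform annotation of the arrays, where each had 1 probe set of its own, and they are 3 of 14860 genes tested. Expression was measured in eWAT, the epididymal fat pad of male C57BL/6J mice 7 to 8 weeks old at purchase and caged 5 per cage, on 12 Affymetrix Mouse Exon 1.0 ST arrays. There were 3 arrays for each of 4 groups, kept at 30°C or 4°C, at –10°C, or at –10°C/–20°C. The 30°C group stayed near thermoneutrality, the range in which a mouse spends no extra energy on heat. The cold groups spent 1 week at 18°C and 1 week at 4°C, after which the 4°C group remained there. The 2 colder groups were adapted stepwise and then held for 3 weeks, one at –10°C and the coldest at –20°C during the day with –10°C at night. An exposure of 5 weeks is recorded for every group. The labels name no altered gene and no drug for any group. All values are log2 signals on the scale of RMA, the authors' background correction, normalization, and summary of probes, and a difference of 1 on this scale is a 2-fold change.

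NR4A receptors are transcription factors with no known natural ligand, because bulky side chains fill the pocket in which other nuclear receptors hold theirs. Their activity is therefore set largely by how much of the protein a cell makes, and their genes are immediate-early genes, transcribed within minutes of a stimulus. In fat, norepinephrine from sympathetic nerves acts through β-adrenergic receptors, cAMP, protein kinase A, and the transcription factor CREB, and this path is known to induce all 3 genes. Nr4a1 and Nr4a2 can pair with the retinoid X receptor RXR, and the 3 receptors share a DNA-binding domain and an 8-base response element.

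The sequence just upstream of each gene is shown because CREB binds cAMP response elements, whose core TGACG can act alone. The windows are the 250 bases before the gene start used by the RefSeq table of GRCm38.p6. Other starts of these genes were not analysed here. They are written 5′ to 3′ on the strand of the gene, and capitals mark TGACG or, where the core lies on the other strand, its complement CGTCA.
Nr4a1, chr15:101266596-101266845, plus strand: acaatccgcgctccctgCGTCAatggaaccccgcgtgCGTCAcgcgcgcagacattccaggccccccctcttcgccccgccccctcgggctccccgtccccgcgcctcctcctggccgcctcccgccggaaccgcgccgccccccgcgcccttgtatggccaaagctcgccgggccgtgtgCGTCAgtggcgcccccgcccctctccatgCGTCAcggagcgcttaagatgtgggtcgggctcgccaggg
Nr4a2, chr2:57124004-57124253, minus strand: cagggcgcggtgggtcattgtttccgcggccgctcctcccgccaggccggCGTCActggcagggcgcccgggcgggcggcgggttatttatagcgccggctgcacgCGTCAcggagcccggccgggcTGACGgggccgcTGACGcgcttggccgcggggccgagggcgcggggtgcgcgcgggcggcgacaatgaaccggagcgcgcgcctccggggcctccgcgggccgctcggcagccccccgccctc
Nr4a3, chr4:48045055-48045304, plus strand: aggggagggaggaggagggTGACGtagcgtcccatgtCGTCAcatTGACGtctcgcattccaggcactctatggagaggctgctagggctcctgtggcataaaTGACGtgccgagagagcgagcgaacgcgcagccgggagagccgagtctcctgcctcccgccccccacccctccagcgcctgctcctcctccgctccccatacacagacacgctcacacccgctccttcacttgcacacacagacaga

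Each of the 3 windows held 4 cores, whereas 0.137% of the 32851 RefSeq promoter windows of this length (45 windows) held 4 or more and 17.8% held at least 1. The windows are rich in G and C (74.4% in Nr4a1, 80% in Nr4a2, and 63.6% in Nr4a3, against a median of 52.4% over all windows), and among the 9178 windows with at least 60% G and C, 0.370% held 4 or more. Counted back from the start, the cores of Nr4a3 lay between positions −231 and −143, those of Nr4a2 between −200 and −107, and those of Nr4a1 between −233 and −36. The full palindrome TGACGTCA (1.55% of windows), the CArG box bound by serum response factor (1.47%), and the NR4A response element AAAGGTCA (1.34%) matched none of the 3 on either strand. The TATA box sequence TATAAA (12.4% of windows) matched once, in Nr4a2, on the strand opposite to the gene. These are matches of letters, and binding was not measured here.

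Before the results, 1 array stands apart in immediate-early genes. The 4°C array of replicate 3 had the highest value of its group in 21 of 23 measured immediate-early genes (the 3 receptors are not in that list) and the highest of all 12 arrays in 13 of them, among them Fos at 9.68, Atf3 at 9.83, and Egr1 at 8.65. The main values that it moves are given with and without it. In addition, 4 arrays (replicates 1 and 2 of 30°C and of 4°C) have names of another form than the other 8 in the study's supplementary table, and what the form stands for is not given in the sources used here. Within a form, the main differences of the receptors are given too. Between 10210 and 10541 genes per array exceeded 4.52, taken as background because 95% of 718 olfactory receptor genes, which fat is not known to use, averaged below it. All 3 receptors exceeded it on all 12 arrays. All 6 adipocyte markers had group means above background, except for Lep (leptin) in the coldest group. The labels call the arrays of a group biological replicates without naming mice, so that each p-value reflects only how these arrays vary.

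**Figure D1:**
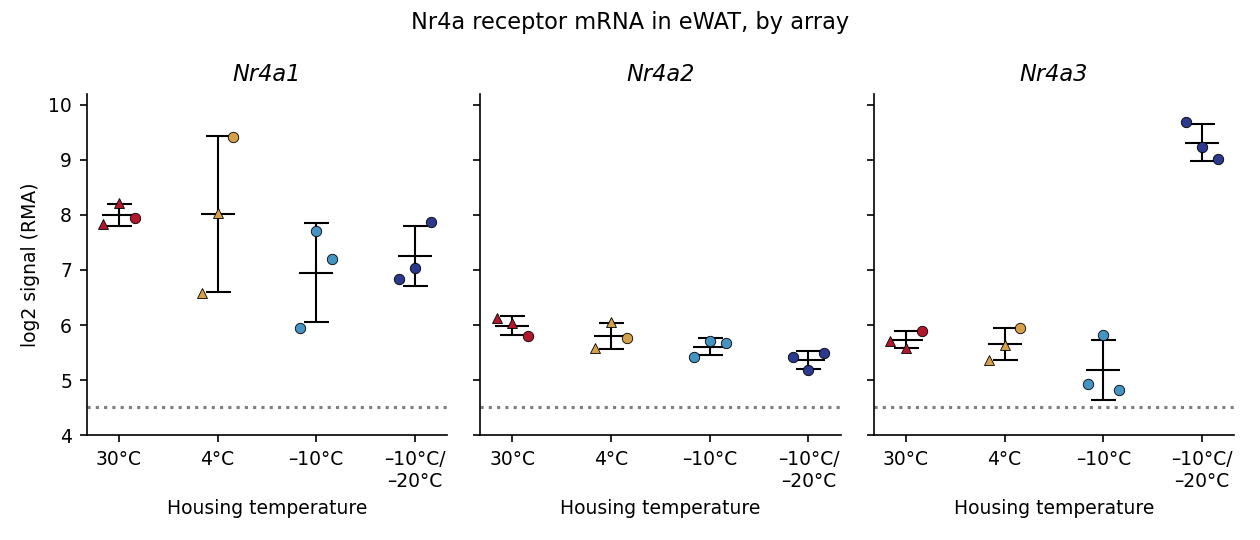
Log2 signal of Nr4a1, Nr4a2, and Nr4a3 on each of the 12 arrays (y axis) by housing temperature (x axis). Circles and triangles are arrays whose names have the one or the other form, horizontal and vertical bars are the group mean ± SD (n = 3), and the dotted line is the background level of 4.52. The 3 coldest arrays of Nr4a3 lie between 9.01 and 9.68, above all 9 others.

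Nr4a3 rose steeply in the coldest group, whereas neither milder cold group passed the test. With –10°C/–20°C its log2 signals were 9.68, 9.23, and 9.01. With 30°C they were 5.72, 5.59, and 5.90, with 4°C 5.37, 5.65, and 5.94, and with –10°C 4.93, 5.81, and 4.82. The 3 coldest arrays lay above all the others with no overlap, a separation in one direction or the other that 11.6% of all genes showed. Group means ± SD (n = 3) were 9.31 ± 0.34, 5.74 ± 0.16, 5.65 ± 0.29, and 5.19 ± 0.54 in the coldest group, with 30°C, with 4°C, and with –10°C, from the highest level to the lowest. Of the neighbours in this order, –10°C/–20°C and 30°C differed beyond their spread, whereas 30°C and 4°C, and 4°C and –10°C, did not pass the test.

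Against 30°C, the rise of Nr4a3 with –10°C/–20°C was 3.57 on the log2 scale (SE 0.26, adjusted p = 2.9e-05, limma), or 11.9-fold (95% interval 8.04 to 17.7). It was the 6th largest increase among all genes in this comparison, in which 18.2% of genes passed an adjusted p under 0.05. Against 4°C the rise was 12.6-fold (log2 3.66, adjusted p = 8.0e-05, 9.77% of genes past the test), the 4th largest increase, and log2 3.80 without the 4°C array of replicate 3. Against –10°C it was 17.4-fold (95% interval 11.7 to 25.8, log2 4.12, adjusted p = 4.1e-05, 7.16% of genes past the test), also the 4th largest, and 2nd of all genes by p. These 3 comparisons share the coldest arrays. The methods' t-test did not pass after adjustment in the last of them (adjusted p = 0.065). In the F-test over the 4 groups, which 17.1% of genes passed, Nr4a3 ranked 4th (F = 109, adjusted p = 6.3e-05), and the exact permutation test of the ordinary F statistic over 15400 arrangements of the arrays gave p = 0.0037.

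Within the 8 arrays of one name form, which hold 1 array of 30°C and 1 of 4°C assumed to vary like the others, Nr4a3 rose by 3.41 on the log2 scale from 30°C to –10°C/–20°C (adjusted p = 0.0080) and by 4.12 from –10°C (adjusted p = 0.0055). Its difference of 3.37 from the single 4°C array did not pass the test there (adjusted p = 0.063). Leaving out any 1 array kept the rise against 30°C between 3.39 and 3.72. In whole tissue, more cells that carry a transcript and more transcript per cell cannot be told apart, and the same holds for lower values.

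Nr4a3 did not pass the test in the milder groups. Its differences from 30°C were −0.08 with 4°C (95% interval −0.65 to 0.49, adjusted p = 0.97), where 3.04% of genes passed, and −0.55 with –10°C (95% interval −1.12 to 0.02, adjusted p = 0.27), where 8.34% passed. Within the name forms these were −0.14 and 0.04 with 4°C and, in the form that holds –10°C, −0.71, none past the test. Between –10°C and 4°C, where 0.0404% of genes passed, the difference was −0.47 (adjusted p = 0.81). Without the 4°C array of replicate 3, the differences of 4°C from 30°C and of –10°C from 4°C were −0.23 and −0.32. With –10°C, replicates 1 and 3 lay below all arrays of 30°C and 4°C, and replicate 2 lay among them. Without that replicate 2, the difference from 30°C was −0.86 and passed the test (adjusted p = 0.044).

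Nr4a2 fell from 30°C to –10°C/–20°C, and its mean was lower at each colder step. Its log2 signals were 6.13, 6.04, and 5.80 with 30°C, 5.58, 6.06, and 5.76 with 4°C, 5.43, 5.71, and 5.68 with –10°C, and 5.43, 5.19, and 5.50 with –10°C/–20°C. The values of the coldest group lay below all of 30°C and of 4°C but overlapped those of –10°C. Such a separation of the coldest arrays from those of 30°C, in either direction, was seen for 30.6% of genes. The share separated from 4°C was not counted. Means ± SD (n = 3) were 5.99 ± 0.17, 5.80 ± 0.24, 5.61 ± 0.16, and 5.37 ± 0.16, and no neighbours in this order differed by the test.

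Nr4a2 fell by 0.62 on the log2 scale with –10°C/–20°C against 30°C (SE 0.14, adjusted p = 0.012, limma), that is, to a level 1.53-fold lower. Of all genes, 11.0% fell and 7.19% rose in this comparison. The fall did not pass with the name form as a block (−0.50, adjusted p = 0.11), within the 8 arrays of one form (−0.42, adjusted p = 0.21), by the methods' t-test (adjusted p = 0.099), or without replicate 2 of –10°C/–20°C (−0.52, adjusted p = 0.054). The other 5 comparisons did not pass. The nearest were –10°C/–20°C against 4°C, at −0.43 (95% interval −0.74 to −0.11, adjusted p = 0.097, and −0.45 without the 4°C array of replicate 3), and –10°C against 30°C, at −0.38 (95% interval −0.70 to −0.07, adjusted p = 0.15). The F-test over the 4 groups gave F = 6.68 (adjusted p = 0.047, exact permutation p = 0.022), and it lost its call when any 1 of 9 arrays was left out.

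Nr4a1 passed the test in none of the 6 comparisons (unadjusted p from 0.11 to 0.98), and its arrays were spread widely within the cold groups. Its log2 signals were 7.83, 8.22, and 7.94 with 30°C, 6.59, 8.04, and 9.41 with 4°C, 5.95, 7.71, and 7.20 with –10°C, and 6.84, 7.04, and 7.88 with –10°C/–20°C. The highest value of all was that of the 4°C array of replicate 3, the array that was also highest in most immediate-early genes. All 3 arrays of –10°C lay below those of 30°C, while the 4°C and –10°C/–20°C groups overlapped 30°C. The exact permutation test of –10°C against 30°C gave p = 0.1, the smallest that 3 against 3 arrays allow. The share of all genes separated in this way was not counted for –10°C. Means ± SD (n = 3) were 8.01 ± 1.41 with 4°C, 8.0 ± 0.20 with 30°C, 7.25 ± 0.55 with –10°C/–20°C, and 6.95 ± 0.90 with –10°C, and no neighbours in this order differed by the test. The SD at 4°C was larger than that of 99.3% of genes.

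Against 30°C, Nr4a1 differed by 0.02 with 4°C (95% interval −1.34 to 1.38), by −1.04 with –10°C (95% interval −2.40 to 0.32, adjusted p = 0.42), and by −0.74 with –10°C/–20°C (95% interval −2.10 to 0.62, adjusted p = 0.51). These intervals leave room for changes of over 2-fold. Without the 4°C array of replicate 3, the difference with 4°C was −0.68 (adjusted p = 0.63), without that of replicate 1 it was 0.73 (adjusted p = 0.76), and in the first case that with –10°C/–20°C was again −0.74 (adjusted p = 0.36). Without replicate 1 of –10°C, the difference of –10°C from 30°C was −0.54. Against 4°C, it differed by −1.06 with –10°C (adjusted p = 0.85) and by −0.76 with –10°C/–20°C (adjusted p = 0.57). Without the 4°C array of replicate 3 these differences were −0.36 and −0.06, and without that of replicate 1 they were −1.77 and −1.47. Against replicate 3 alone, within the 8 arrays of one form, they were −2.45 (unadjusted p = 0.0072, adjusted p = 0.57) and −2.15 (adjusted p = 0.21). Between the 2 coldest groups it differed by 0.30 (adjusted p = 0.87). Within the 4 arrays of one name form, the 4°C difference was −0.71, and within the other 8, where 4°C is that replicate 3 alone, it was 1.47. Neither passed the test. The F-test gave an adjusted p of 0.53 (exact permutation p = 0.42).

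**Figure D2:**
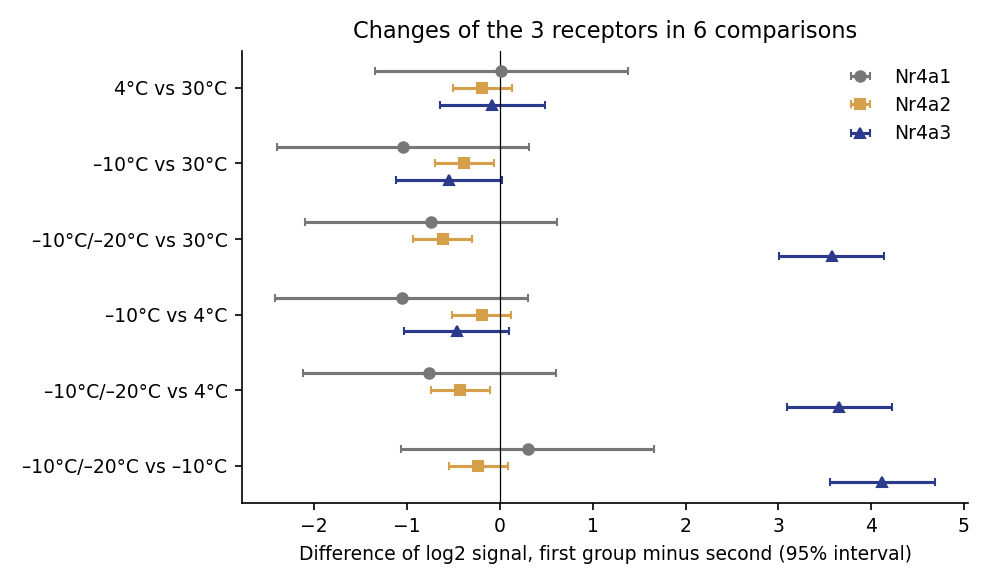
Difference of log2 signal (x axis, first group minus second, with 95% intervals from limma) for each of 6 comparisons between groups (y axis) and each receptor. The 3 intervals of Nr4a3 with –10°C/–20°C lie between 3.01 and 4.69, and the intervals of Nr4a1 are the widest.

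The 3 receptors did not move alike. In –10°C/–20°C against 30°C, the log2 change of Nr4a3 exceeded that of Nr4a1 by 4.32 (SE 0.53) and that of Nr4a2 by 4.19 (SE 0.28). In both pairs the 3 coldest arrays lay apart from those of 30°C, and the exact permutation test gave p = 0.1, the smallest that 3 against 3 arrays allow (0.45 after adjustment over the 9 differences compared). Nr4a1 and Nr4a2 differed from each other by −0.13 in this comparison (SE 0.32, exact permutation p = 0.7). With 4°C and –10°C, the 6 differences between receptors lay from −0.66 to 0.50, and their exact permutation p values from 0.2 to 0.9.

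Among the genes whose pattern over the 12 arrays was most like that of Nr4a1, 4 of the first 5 are on the immediate-early list. They are Jun (r = 0.88), Atf3 (r = 0.85), Fos (r = 0.83), and Ccn1, a secreted matrix protein (r = 0.78), and the other is Ptgs2, the inducible cyclooxygenase (r = 0.85). Jun and Fos encode the partners of the AP-1 factor, and Atf3 a related stress-induced factor. The likeness was also present inside the groups, where the deviations from group means correlated at 0.69 to 0.86. Without the 4°C array of replicate 3, r with these 5 genes was 0.65 to 0.80 and that of the deviations 0.37 to 0.73, over 11 arrays. This is a description over arrays that share their groups, chosen from 864 genes by the height of r.

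Fos shows this array by array. Its log2 signals were 8.36, 9.15, and 8.50 with 30°C, 6.54, 7.50, and 9.68 with 4°C, 5.75, 5.80, and 7.01 with –10°C, and 5.87, 7.19, and 7.81 with –10°C/–20°C. As for Nr4a1, the lowest 4°C array was replicate 1 and the highest was replicate 3, and –10°C replicate 1 was the lowest of all. Replicate 2 of –10°C went otherwise, as the highest of its group in Nr4a1 (7.71) but near the lowest in Fos (5.80). Over the 23 immediate-early genes, the median r with Nr4a1 was 0.71, with Nr4a2 0.37, and with Nr4a3 −0.08. Without the 4°C array of replicate 3 the 3 medians were 0.55, 0.36, and −0.06. Inside the groups, with all arrays kept, the median r of the deviations from group means was 0.64 with Nr4a1, 0.05 with Nr4a2, and 0.22 with Nr4a3. For Nr4a3 the r of the deviations ran from −0.10 (Fos) to 0.78 (Myc), so its median over all arrays does not describe the likeness inside the groups.

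**Figure D3:**
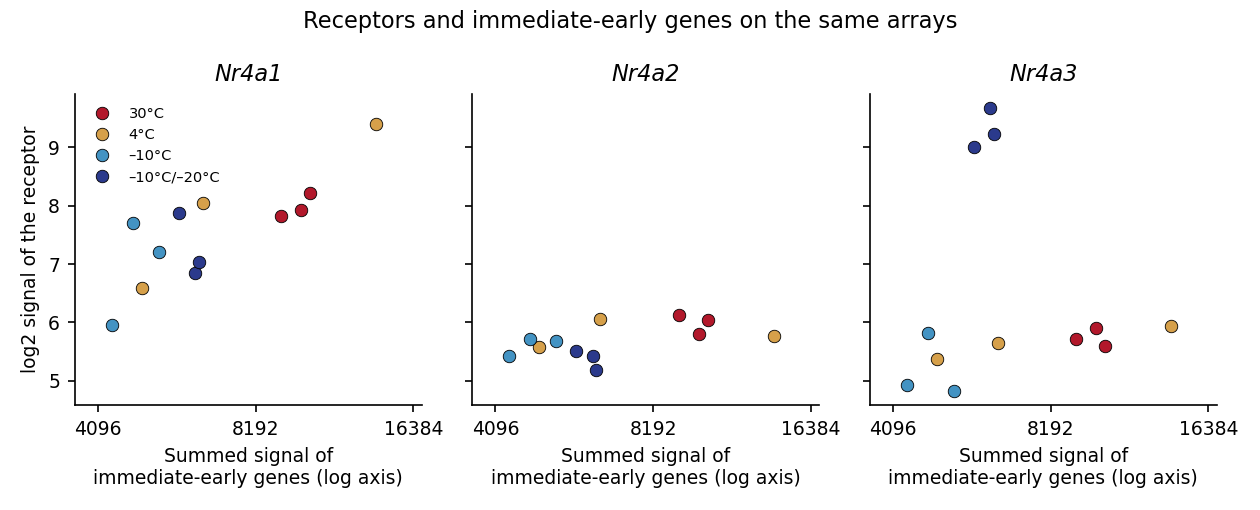
Log2 signal of each receptor (y axis) against the summed linear signal of 23 immediate-early genes on the same array (x axis, log scale), 1 point per array, colored by temperature. The 4°C array at 13915 is the highest of Nr4a1, while the 3 coldest arrays of Nr4a3 sit at 9.01 to 9.68 with summed signals of 5842 to 6379.

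Against 30°C, the immediate-early genes as a group did not rise in the coldest group as Nr4a3 did. With –10°C/–20°C against 30°C, 3 of 23 fell (against 11.0% of all genes, and 1 within the 8 arrays of one name form) and the other 20 did not pass the test, with a median log2 difference of −0.48 against −0.03 over all genes. Those that fell were Dusp1, a phosphatase that switches off MAP kinases (log2 difference −1.02), Myc, a growth-promoting factor (−0.71), and Klf6, a zinc finger factor (−0.66). The count was 8 without the 4°C array of replicate 3 and 0 without replicate 3 of –10°C/–20°C. With –10°C against 30°C, 5 fell and 0 rose (21.7% called against 8.34% of all genes). With 4°C, 1 fell and 0 rose (4.35% called against 3.04% of all genes). From –10°C to –10°C/–20°C, 0 of 23 passed the test, against 7.16% of all genes. The median log2 difference in that step was 0.25, against −0.07 over all genes. With –10°C/–20°C against 4°C, 1 rose and 0 fell (4.35% called against 9.77% of all genes). This was Maff (0.73, adjusted p = 0.043). The summed signal of the list was 9165 to 10415 with 30°C, 4964 to 13915 with 4°C, 4358 to 5351 with –10°C, and 5842 to 6379 with –10°C/–20°C. On the array with the highest sum, the 4°C replicate 3, Nr4a3 was at 5.94. This was its highest value outside the coldest group, and the next was 5.90, in replicate 3 of 30°C.

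Several cAMP-responsive genes were higher in the coldest group than with 30°C, as was Nr4a3. Of 12 measured, 6 rose from 30°C to –10°C/–20°C and 1 fell, or 58.3% called against 18.2% of all genes (2 rose and 1 fell within the 8 arrays of one name form), and the median log2 difference was 0.64. Pde4d, a phosphodiesterase that breaks down cAMP, had log2 signals of 9.85, 10.07, and 10.23 with –10°C/–20°C and of 6.75, 6.63, and 6.87 with 30°C. It had 6.32, 6.67, and 6.67 with 4°C and 6.99, 8.25, and 6.96 with –10°C, so that its coldest arrays, like those of Nr4a3, lay above all others, and its highest –10°C array was replicate 2, as for Nr4a3. Pde4d rose by 3.30 (SE 0.28, adjusted p = 4.3e-05), or 9.85-fold.

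Dio2, which makes active thyroid hormone in cold-exposed fat, was below background on all 30°C arrays and was at least 3.47-fold higher with –10°C/–20°C (measured log2 difference 2.45, adjusted p = 0.0039). Rgs2, which shortens G protein signals, rose by 1.41 (adjusted p = 0.036), and Cebpb, a factor of fat cell differentiation, by 0.95 (adjusted p = 0.0054). The other 2 that rose were Crem, which encodes a cAMP-induced repressor of CREB targets (0.78), and Pde3b, the phosphodiesterase through which insulin lowers cAMP in fat cells (0.50). Pde4b fell by 0.88. Ppargc1a, the coactivator of mitochondrial genes, had a difference of 1.34 that did not pass (adjusted p = 0.054).

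In the milder groups the list looked different. With 4°C, limma called 0 of the 12 genes, against 3.04% of all genes (1 at an unadjusted p under 0.05, and 0 called by the methods' t-test). With –10°C, 1 rose and 2 fell (25.0% called against 8.34% of all genes). Dio2 rose (at least 3.03-fold against background). Sik1, a kinase that restrains CREB coactivators (−0.98), and the clock gene Per1 (−0.72) fell. Sik1 and Per1 were not past the test with –10°C/–20°C against 30°C, at −0.11 and 0.12. From –10°C to –10°C/–20°C, 6 of the 12 genes rose and 0 fell (50.0% called against 7.16% of all genes). Sik1 (0.87, adjusted p = 0.013) and Per1 (0.85, adjusted p = 0.0085) were among them. Dio2 (0.20, adjusted p = 0.89) and Pde3b (0.31, adjusted p = 0.090) did not pass in that step. The genes named beyond the 4 largest changes were chosen after their values were seen.

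**Figure D4:**
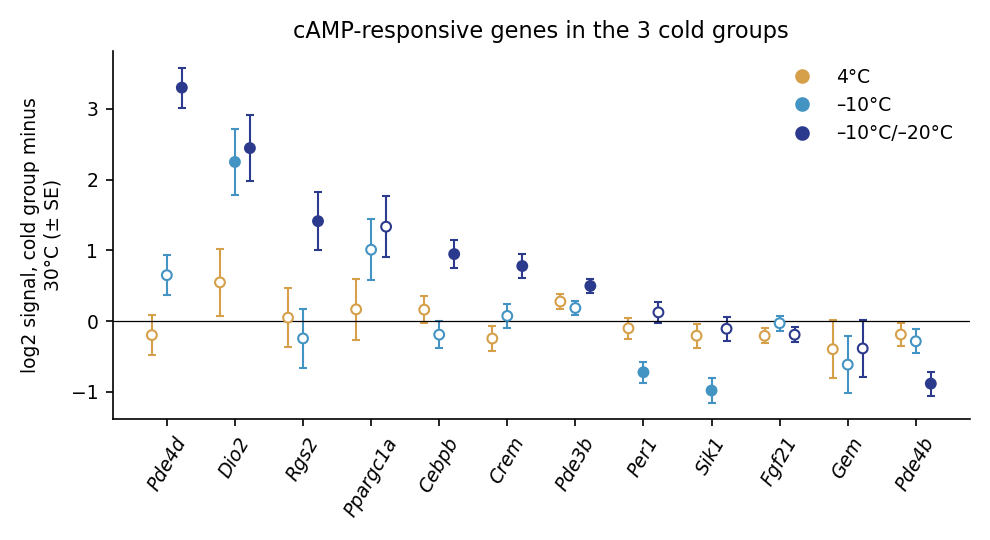
Difference of log2 signal from 30°C (y axis, ± SE from limma) of 12 cAMP-responsive genes (x axis, ordered by the coldest group) in the 3 cold groups. Filled points passed an adjusted p under 0.05. Pde4d stands at 3.30 in the coldest group and −0.20 with 4°C.

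Upstream of CREB, genes of the path were called in both directions, at a share near that of all genes in the coldest group. Of 17 measured genes from the G protein to the CREB coactivators, 1 rose from 30°C to –10°C/–20°C, 3 fell, and 13 did neither by the test (median 0.12), a share of 23.5% called against 18.2% of all genes (1 rose and 2 fell within the 8 arrays of one form). Adcy3, an adenylyl cyclase that makes cAMP, rose by 1.35 (2.56-fold, adjusted p = 0.00011). Adcy6, another cyclase, fell by 0.51, and the CREB coactivators Crtc3 (−0.39) and Crtc1 (−0.35) fell too. The count of 4 was 1 to 3 when single arrays were left out. With 4°C, 2 rose and 0 fell (11.8% called against 3.04% of all genes). They were the cyclase Adcy5 (1.13, adjusted p = 0.034) and Prkar2b, a regulatory subunit of protein kinase A (0.76, adjusted p = 0.0072). With –10°C, 2 rose and 0 fell (11.8% called against 8.34% of all genes). They were Adcy5 (0.90, adjusted p = 0.048) and Prkaca, a catalytic subunit of the kinase (0.59, adjusted p = 0.0076). The β-adrenergic receptors were not analysed here.

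Other known routes to these genes run through Mef2 and serum response factor, which class IIa histone deacetylases hold back in the case of Mef2. Of 13 measured genes, 4 (30.8%, against 11.0% of all genes, and 1 within the 8 arrays) fell with –10°C/–20°C (median −0.05) and the other 9 did not pass. Hdac9 fell by 0.66 and Hdac5 fell by 0.35. Mef2c fell by 0.54, and Mrtfa, a coactivator of serum response factor, fell by 0.44. Among 10 RXR partners and coregulators, 2 rose and 2 fell (40.0% called against 18.2% of all genes, 1 higher within the 8 arrays, median −0.09). Rxra, the RXR with which Nr4a1 can pair, rose by 0.65 and the coactivator Ncoa1 by 0.65, while the related coactivators Ncoa3 (−0.38) and Ncoa2 (−0.31) fell.

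Genes reported to respond to NR4A receptors, mostly from studies of muscle and liver, were also counted. Of 18 measured, 6 were higher by the test in the coldest group than with 30°C, 1 was lower (38.9% called against 18.2% of all genes, and 1 higher within the 8 arrays), and the median log2 difference was 0.16. Lpin1, a phosphatidate phosphatase of triglyceride synthesis, rose by 1.37 (adjusted p = 3.3e-05), Ucp3, a mitochondrial carrier, by 0.97, and Slc2a4, the insulin-regulated glucose transporter GLUT4, by 0.68. Prkag3, a regulatory subunit of AMP-activated protein kinase, fell by 0.56. Lpin1 also rose with 4°C (0.72, adjusted p = 0.0058), where Nr4a3 did not pass the test. Counts for the same list were 2 rose and 2 fell with 4°C (22.2% called against 3.04% of all genes). With –10°C, they were 2 rose and 1 fell (16.7% called against 8.34% of all genes).

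Within the nuclear receptor superfamily, Nr4a3 had the largest difference of 41 measured members with –10°C/–20°C, followed by Nr1d2, the clock repressor REV-ERBβ, at 1.79 (3.45-fold). Of the 41, of which 29 exceeded background on at least 3 arrays, 8 rose and 5 fell (31.7% called against 18.2% of all genes), with a median of 0.04 over the list. Within the 8 arrays of one name form, 3 of them rose and 3 fell. Ppara, the receptor that drives fatty acid oxidation, rose by 1.20, and Nr1h3, the sterol sensor LXRα, by 0.75. Thra, a thyroid hormone receptor, fell by 0.98. Nr1d2 also rose with 4°C (1.83, adjusted p = 0.0093), and Nr1h3 and Thra passed in all 3 cold groups.

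**Figure D5:**
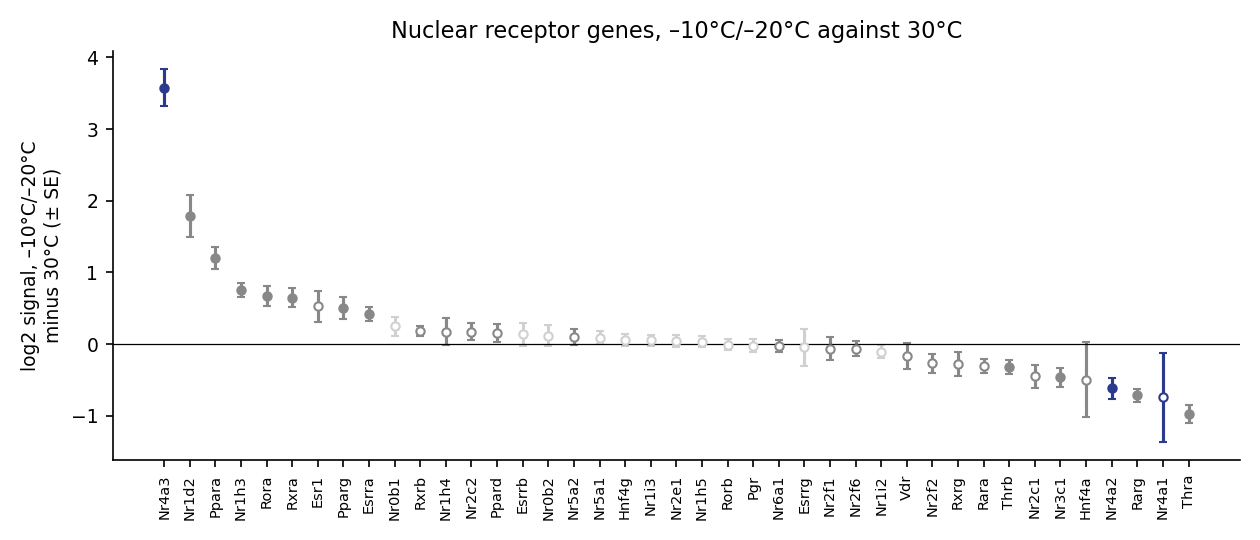
Difference of log2 signal, –10°C/–20°C minus 30°C (y axis, ± SE from limma), of 41 nuclear receptor genes (x axis, ordered by difference). Blue marks the NR4A receptors, filled points passed an adjusted p under 0.05, and light grey marks genes above background on fewer than 3 arrays. Nr4a3 is first at 3.57, and Nr4a2 and Nr4a1 are near the other end at −0.62 and −0.74.

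The genes most like Nr4a3 over the 12 arrays were Map3k6, a MAP kinase kinase kinase (r = 0.97), Mbd1, which binds methylated DNA (r = 0.97), Limk2, a kinase of the actin cytoskeleton (r = 0.96), Atg101, a subunit of the autophagy-starting kinase complex (r = 0.95), and Niban2 (r = 0.95). Each was higher on all 3 coldest arrays than on the other 9, with log2 differences from 30°C of 1.0 to 1.33. This likeness is set by the coldest group. Without it, r with Nr4a3 over the other 9 arrays was −0.06 to 0.64. In genome order among the genes tested, Stx17, a syntaxin of autophagosomes, follows Nr4a3 and rose by 1.33 (adjusted p = 3.2e-05), while Sec61b, a subunit of the protein channel of the endoplasmic reticulum, on its other side, differed by −0.10 (adjusted p = 0.89). Atg101 is also the next gene tested after Nr4a1 in genome order.

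The genes most like Nr4a2 were Abcc3, an organic anion exporter (r = 0.92), Tmem176a (r = 0.91), Kmo, a kynurenine-degrading enzyme (r = 0.91), Cxcl16, a chemokine (r = 0.91), and Sema4a, a semaphorin (r = 0.90). All 5 fell with –10°C/–20°C, with log2 differences of −1.66 to −1.01. Kmo was below background on all 3 coldest arrays, so that its fall is at least 1.34-fold. Over the same arrays macrophage markers were also lower. The median r of the 7 markers with Nr4a2 was 0.68, whereas that of the deviations from group means was −0.36 (from −0.62 to 0.49). With –10°C/–20°C against 30°C, 5 of 7 fell (71.4%, against 11.0% of all genes). Among them were Adgre1, the F4/80 antigen (−1.53), and Csf1r, the receptor of a macrophage growth factor (−1.16). The summed signal of the 7 markers was 3032 to 3773 with 30°C, 2426 to 2508 with 4°C, 1836 to 2118 with –10°C, and 1406 to 1732 with –10°C/–20°C, and all 7 group means exceeded background in each group. In addition, 2 of 6 lymphocyte (33.3%) and 2 of 4 stromal progenitor markers (50.0%) fell, against 11.0% of all genes. Of 4 endothelial markers, 0 passed the test in limma (2 at an unadjusted p under 0.05, and 0 called by the methods' t-test). Of 6 adipocyte markers, 1 fell (16.7%, against 11.0% of all genes). This was Lep, from a mean of 10.8 to one of 4.30, with 1 of 3 coldest arrays above background. Of 4 brown adipocyte markers, Ucp1 was above background on 1 of 12 arrays. Of the other 3, Cidea rose by 3.41 on the log2 scale, and Dio2 and Elovl3, below background on all 30°C arrays, rose at least 3.47-fold and 22.1-fold. The summed signal of the 4 was 62.0 to 63.6 with 30°C, where Cidea alone exceeded background, 94.8 to 153 with 4°C, 276 to 480 with –10°C, and 459 to 1375 with –10°C/–20°C. What part these shifts in cell markers have in the values of Nr4a2, Nr4a3, and Nr4a1 was not tested.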

How the data were processed

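RNA of eWAT was measured on 12 arrays. The deposited log2 values were made by the authors with RMA in Affymetrix Expression Console, per the labels and the submitters' processing notes. For these tools no version, and for the array annotation no genome build, is named in the sources used here. Deposited values were used without further normalization.

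Of 23332 probe sets, 14996 carried 1 gene symbol in the platform annotation. The brightest was kept for 135 genes with several, which left 14860 genes. In R 4.3.3, limma 3.58.1 (lmFit, then eBayes) gave 6 contrasts and an F-test per gene from 1 fit of the 4 groups, with Benjamini-Hochberg adjustment over all genes. Unless a sentence names another test, its adjusted p comes from this fit, and an adjusted p under 0.05 is a call. Single values were also compared by exact permutation. The procedure was tested on simulated data. The number of arrays limits the precision.

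The members, the gene lists, and the motifs were chosen with earlier results of these data known. Named genes were the 3 receptors, up to 4 genes per list with the largest change past the test with –10°C/–20°C against 30°C, and the 5 genes with the highest Pearson r to each receptor among genes above background on at least 3 arrays whose group means span at least 1 on the log2 scale. Others are named as chosen after their values were seen, as are single markers and genome neighbours. Promoters are RefSeq sequences of GRCm38.p6, and all 3 genes matched.

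Alternatives were the methods' unpaired t-test (analysis of variance over 4 groups) with adjustment, eBayes with trend and robust fit, a filter keeping 10772 genes above background on at least 3 arrays, repeated quantile normalization, centring on array medians, only the arrays compared, all probe sets, array weights, blocks for the replicate number or for the name form, and each array left out in turn. The correlations without 1 array and the list counts within a name form were added after seeing the data. Other steps used Python 3.11.15 (pandas 2.3.3, numpy 2.4.6, scipy 1.17.1, matplotlib 3.10.9).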

Additional observations from a re-analysis of the deposited data

How the results depend on the processing

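Of 679 values recomputed for 37 results, 612 kept their direction or count and their side of the threshold, apart from 18 sign changes, all in differences that did not pass the test (9 results, among them 3 fold changes of Nr4a1 with 9 of the sign changes, whose 4°C difference was −0.93 with array weights). The rises of Nr4a3 with –10°C/–20°C against 30°C and 4°C kept their call in every alternative run (within the 8 arrays of one name form, that against 4°C did not pass), and the rise against –10°C, of 4.12, lost it by the methods' t-test alone. Without single arrays, the difference of Nr4a3 with –10°C from 30°C was −0.86 to −0.36, and the lowest passed the test. For Nr4a2 with –10°C/–20°C against 30°C, the t-test (−0.62) and the name form as a block (−0.50) lost the call, and without single arrays the value was −0.71 to −0.52. With –10°C it passed with array weights (−0.41). The F statistic of Nr4a2 lost its call in the analysis of variance (6.06), with trend and robust fit (6.38), quantile normalization (5.26), median centring (4.09), all probe sets (6.24), and the name form as a block (2.84). Without single arrays it was 4.56 to 8.16, and 9 of 12 lost the call. The cause was not tested.

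With the replicate number as a block, the F of Nr4a2 was 6.03 and lost its call (adjusted p = 0.072). The block changed no other call of the 3 receptors, and 2879 genes were called with –10°C/–20°C against 30°C where 2707 were called without it. Same-numbered arrays deviated from their group means with r = −0.386 to 0.54 (over 0.1 in 11 of 18 pairs, in 6 of 6 for number 1 and 1 of 6 for number 3), and 5 of 12 arrays correlated best with one of their own number. The labels do not say whether a number marks anything shared.

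Counts of called list genes with –10°C/–20°C against 30°C moved as follows. The t-test called 4 of the cAMP-responsive genes (7 by limma), 0 immediate-early genes (3), 0 genes of the path to CREB (4), 0 of Mef2 and serum response factor (4), 2 RXR partners (4), 1 NR4A-responsive gene (7), and 3 nuclear receptors (13). The name form as a block called 5 immediate-early genes, 1 gene of the path to CREB, 2 of Mef2, 1 RXR partner, 2 NR4A-responsive genes, and 6 nuclear receptors. The immediate-early count was 1 with median centring or all probe sets and 8 with array weights or only the arrays compared. The path to CREB gave 2 with trend and robust fit, only the arrays compared, or all probe sets, and Mef2 gave 2 with quantile normalization or median centring. Without single arrays the counts were 0 to 8 for immediate-early genes, 1 to 3 for the path to CREB, 2 to 5 for Mef2, 2 to 4 for RXR partners, and 2 to 8 for NR4A-responsive genes, where 1 array decides (4 without replicate 1 of 30°C, 2 without replicate 2 of 30°C, and 4 without replicate 3 of –10°C/–20°C).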
